A study of Mus musculus with 8 samples.

Results

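The genes described here are the cytokines TNF, IL-6, oncostatin M (OSM) and leukaemia inhibitory factor (LIF) with the receptor chains that bind them, measured in mouse paws. They are 4 ligand genes (Tnf, Il6, Osm, Lif) and 6 receptor genes (Tnfrsf1a, Tnfrsf1b, Il6ra, Il6st, Osmr, Lifr), chosen by name from 19938 genes that the array annotation names. All 10 were measured, each by 1 probe set that carries exactly 1 gene symbol, and none was removed by a filter.

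Paws of male DBA1/J mice were profiled on 8 Affymetrix Mouse Gene 1.0 ST arrays, 2 for each of 4 groups of 8 mice. The mice are labelled as 8 to 10 weeks old. With the weeks of dosing given below, this is not taken as their age at tissue collection, which is not given here. CIA+MLIF mice received an intradermal dose of 150 µg of chicken type II collagen, emulsified with complete adjuvant, at the tail base, a booster with incomplete adjuvant at week 3, and weekly nasal MLIF (monocyte locomotion inhibitory factor, a pentapeptide from the amoeba Entamoeba histolytica) that began ahead of the first collagen dose. CIA (collagen-induced arthritis) mice received the same collagen and booster without MLIF. Adjuvant+MLIF mice received complete and then incomplete adjuvant with no collagen, and nasal MLIF each week for 9 weeks, and adjuvant mice received the adjuvants alone. All groups therefore carried both adjuvant injections, and no group was left unimmunised. The sample labels place tissue collection 4 weeks after the booster, whereas the design text of the series places it before the booster. Both arrays of a group are labelled as biological replicates, with no word on whether an array held 1 mouse or several, and p-values therefore reflect only array-to-array spread within groups, which may be technical.

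Signals are log2 values as deposited, and 28944 probe sets were tested. The number of arrays limits the precision: from 2 arrays a group, log2 changes had a median SE of 0.18. CIA replicate 1 stood apart with a median log2 signal of 6.66, while the other 7 arrays had 7.07 to 7.10. Over all probe sets the log2 change had a median of -0.25 in CIA against adjuvant and of 0.24 in CIA+MLIF against CIA. That median was 0.03 in adjuvant+MLIF against adjuvant, -0.03 when both MLIF groups were compared, and 0.21 in the interaction, which is the MLIF difference in collagen mice minus that in adjuvant mice. Changes are given as deposited and, where it matters, relative to that median. Arrays of the groups compared did not overlap for 57.2% of probe sets in CIA against adjuvant and 51.6% in CIA+MLIF against CIA. The share was 54.7% in adjuvant+MLIF against adjuvant and 53.2% in CIA+MLIF against adjuvant+MLIF, so non-overlap alone was common. The adjuvant+MLIF arrays were the closest pair, since the difference between their 2 arrays had an SD of 0.0936 over probe sets, where the other groups had 0.207 to 0.324. The CIA pair was the widest, at 0.324. A fit without 1 array leaves 1 array in that group and takes the spread from the other groups. A call gained without a CIA array is therefore no sign of a stable result. The labelled tissue is articular, and all 8 chondrocyte marker genes examined lay above the median of the array's control entries on every array. The same held for all 12 skeletal muscle and all 11 fibroblast markers, and for 2 of 12 keratinocyte markers. This criterion therefore does not single out joint tissue. In tissue of several cell types, fewer cells of a type and less RNA per cell cannot be told apart.

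TNF is made mainly by macrophages and lymphocytes and acts through TNFR1 (Tnfrsf1a), found on most cells, and TNFR2 (Tnfrsf1b), found mostly on immune and endothelial cells, to switch on NF-kappaB and AP-1 target genes. IL-6, OSM and LIF share gp130 (Il6st), which pairs with a receptor chain of its own for each ligand and signals through JAK kinases and STAT3. IL-6 first binds IL-6R alpha (Il6ra), while OSM and LIF use Osmr and Lifr. Both systems are studied in arthritis because they act on synovial fibroblasts, bone and infiltrating leukocytes, and both are blocked in the treatment of rheumatoid arthritis.

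The promoters of the 3 genes that passed the test in CIA against adjuvant are shown first, since these genes carry the findings below. The sequences are from RefSeq, build GRCm38.p6, and each covers 250 bases before to 50 bases after the transcript start, 5′ to 3′ on the gene's strand. Il6 is at chr5:30012864-30013163 on the plus strand, Osmr at chr15:6874264-6874563 on the minus strand and Tnfrsf1a at chr6:125349473-125349772 on the plus strand. Capitals mark matches to 4 motifs searched on both strands: the NF-kappaB consensus, AP-1 (TGANTCA), STAT (TTCNNNGAA) and C/EBP (TTNNGCAA).
Il6: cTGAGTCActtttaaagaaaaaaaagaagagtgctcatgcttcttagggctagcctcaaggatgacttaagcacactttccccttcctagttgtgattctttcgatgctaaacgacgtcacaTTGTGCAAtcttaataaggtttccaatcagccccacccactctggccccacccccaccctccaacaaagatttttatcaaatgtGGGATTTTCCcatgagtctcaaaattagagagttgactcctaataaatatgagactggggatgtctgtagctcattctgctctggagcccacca
Osmr: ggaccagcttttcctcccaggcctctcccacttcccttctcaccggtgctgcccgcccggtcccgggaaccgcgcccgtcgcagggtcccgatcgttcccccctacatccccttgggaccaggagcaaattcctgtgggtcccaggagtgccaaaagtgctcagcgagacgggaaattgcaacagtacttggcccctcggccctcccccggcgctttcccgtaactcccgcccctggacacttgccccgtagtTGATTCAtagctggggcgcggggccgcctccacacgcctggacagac
Tnfrsf1a: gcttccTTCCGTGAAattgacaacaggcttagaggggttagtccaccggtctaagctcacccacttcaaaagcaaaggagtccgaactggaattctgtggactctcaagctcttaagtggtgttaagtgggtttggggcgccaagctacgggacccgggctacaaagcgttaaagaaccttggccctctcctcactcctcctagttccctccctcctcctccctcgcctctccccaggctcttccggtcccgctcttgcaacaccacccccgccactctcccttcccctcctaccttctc
Counted from the start, the Il6 promoter held AP-1 letters at -249 to -243, C/EBP letters at -128 to -121 and NF-kappaB letters at -44 to -35, and no 2 of them overlapped. The Osmr window held 1 AP-1 match at 4 to 10, and the Tnfrsf1a window 1 STAT match at -244 to -236. Of the 10 genes, 9 had a window. Lif held an NF-kappaB match and an AP-1 match, Tnfrsf1b held a STAT match, and Tnf, Il6ra, Il6st and Lifr held none of these letters. Among 32817 RefSeq promoters of the same length, 8.46% held the NF-kappaB letters, 7.81% AP-1, 8.29% STAT and 10.8% C/EBP. A match describes letters and is not evidence of binding.

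In arthritic paws 1 ligand and 2 receptors were higher than in adjuvant paws. Il6, Osmr and Tnfrsf1a were higher by 2.31-fold, 1.77-fold and 1.48-fold, and no member was lower at an adjusted p under 0.05 (limma, Benjamini-Hochberg over all probe sets). Il6 lay below the median of the control entries on all 8 arrays, so its fold is of a signal near the bottom of the measured range. These are 3 of 10 genes, where 18.5% of all probe sets passed in either direction and 4.3% passed as higher. In CIA+MLIF paws, where MLIF began ahead of the collagen, Osmr was lower than in CIA paws (0.634-fold) and the other 9 genes did not pass. That is 1 of 10 genes, against 14.7% of all probe sets in either direction and 3.25% lower. Both shares moved most with 1 array: without CIA replicate 2, 17706 of the 28944 probe sets passed in CIA against adjuvant and 17353 in CIA+MLIF against CIA, in place of 5353 and 4257. MLIF in adjuvant mice changed 0 of 10 genes and 0% of all probe sets by limma's adjusted p, while 1 of 10 genes and 1107 of 28944 probe sets had an unadjusted p under 0.05. CIA+MLIF differed from adjuvant+MLIF in 0 of 10 genes, against 0.729% of all probe sets, and 0 of the 10 had an unadjusted p under 0.05. The interaction passed for 0 of 10 genes, against 7.24% of all probe sets, with 3 genes (Il6, Osmr and Tnfrsf1a) at an unadjusted p under 0.05. CIA+MLIF against CIA shares the CIA arrays with CIA against adjuvant, so a shift of those arrays enters both with opposite sign.

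**Figure D1:**
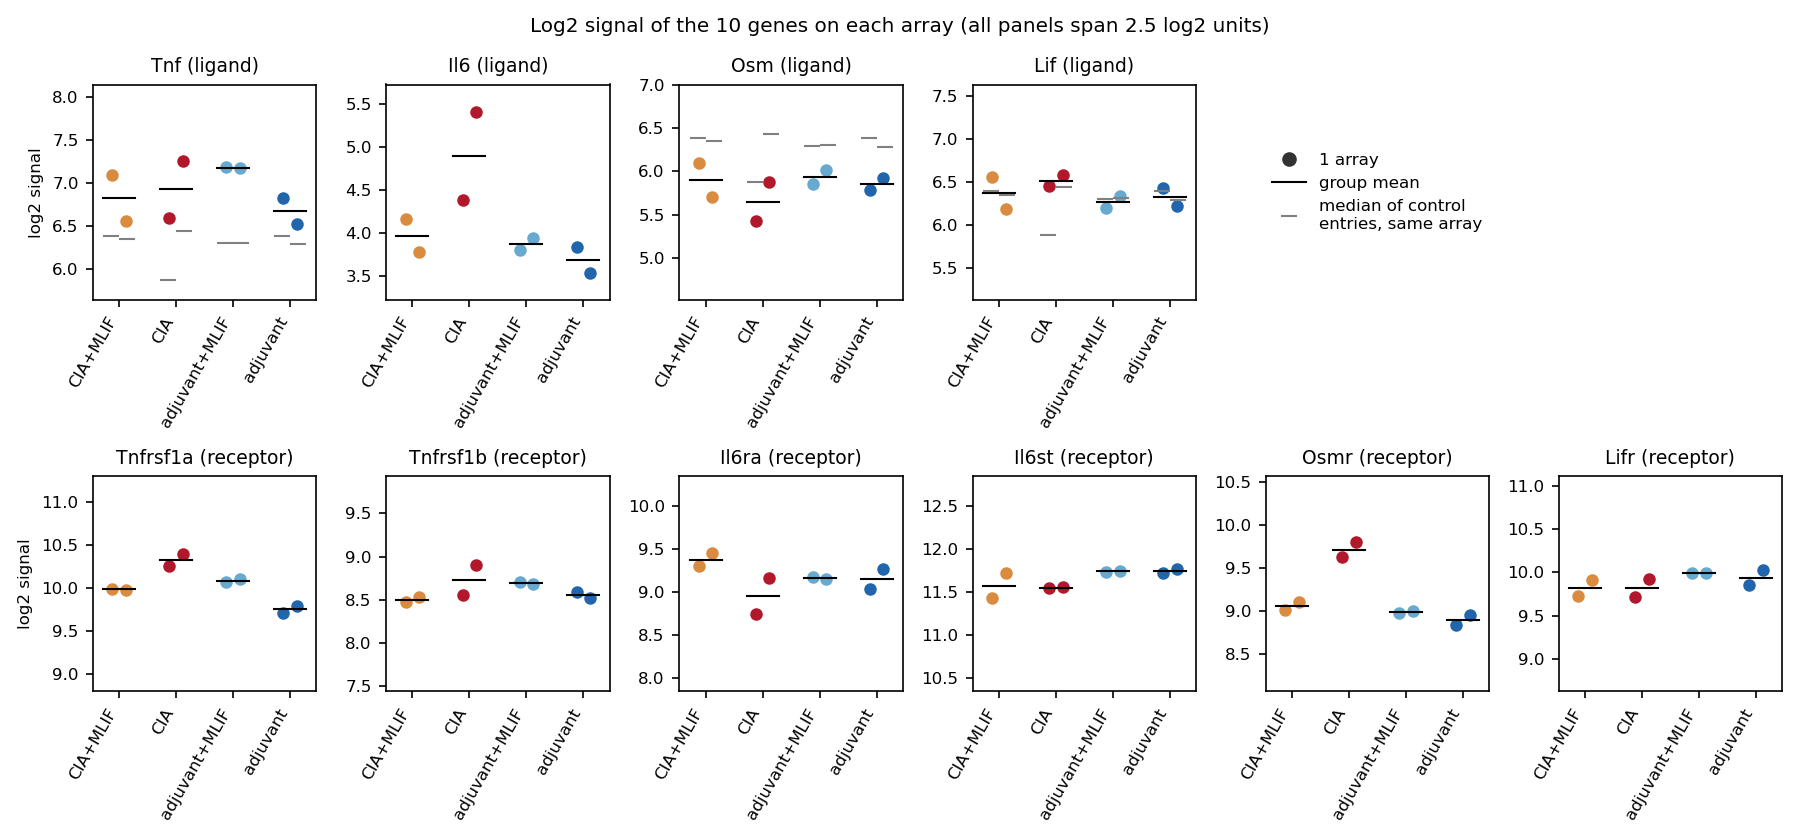
Log2 signal of each of the 10 genes (y axis) by group (x axis), with ligands in the upper and receptors in the lower panels. Dots are arrays (2 per group), black bars are group means and grey dashes are the array's control-entry median where it falls inside the panel. Osmr and Tnfrsf1a of both CIA arrays lie above all 6 other arrays, while Il6 is high mainly on CIA replicate 2, at 5.41.

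Il6 encodes the cytokine IL-6, an inducer of acute-phase proteins and a growth signal for B and T cells. Its log2 signal was 4.16 and 3.78 in CIA+MLIF paws, 4.38 and 5.41 in CIA paws, 3.80 and 3.94 in adjuvant+MLIF paws and 3.84 and 3.54 in adjuvant paws. Both CIA arrays were above all others, but they differed from each other by more than the other 6 arrays spread, and the other 3 groups overlapped. On all 8 arrays the signal lay below the median of the control entries of the same array, so Il6 was near the bottom of the range that the array measured. Group means were 4.90 ± 0.73 in CIA and 3.69 ± 0.21 in adjuvant paws (SD, n = 2 each), a log2 change of 1.21 (SE 0.30, 95% interval 0.52 to 1.89, limma adjusted p = 0.025), or 1.45 above the median of all probe sets. The size rested on 1 array: it was 1.72 without CIA replicate 1 and 0.69 without CIA replicate 2. The call ended without adjuvant replicate 1 (adjusted p = 0.0829), without adjuvant replicate 2 (0.157) and with array weights (0.103).

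CIA+MLIF paws had less Il6 signal than CIA paws on every array, with means of 3.97 ± 0.27 in CIA+MLIF and 4.90 ± 0.73 in CIA paws (SD, n = 2 each). The log2 change of -0.93 (SE 0.30, interval -1.61 to -0.24) did not pass (limma adjusted p = 0.0727). It passed after quantile normalization (-1.40, limma adjusted p = 0.00045) and after centring each array (-1.15, adjusted p = 0.00534). It also passed in a limma fit of only the groups compared (adjusted p = 0.0243). The change was -1.44 without CIA replicate 1 and -0.41 without CIA replicate 2. The Il6 change in CIA+MLIF against adjuvant+MLIF was 0.10, with an interval of -0.59 to 0.78.

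Tnf encodes the cytokine that gives the family its name. On the log2 scale Tnf was at 7.09 and 6.56 in CIA+MLIF, 6.60 and 7.26 in CIA, 7.19 and 7.17 in adjuvant+MLIF and 6.83 and 6.53 in adjuvant paws. The CIA arrays spanned nearly the whole range of the 8, and the highest and lowest groups by mean were adjuvant+MLIF and adjuvant. The signal was above the control-entry median on all 8 arrays. CIA against adjuvant gave a log2 change of 0.26 (interval -0.31 to 0.83, limma adjusted p = 0.474), and the change turned to -0.07 without CIA replicate 2. CIA+MLIF against CIA gave -0.11 (interval -0.68 to 0.46), which turned to 0.22 without CIA replicate 2. In adjuvant mice the MLIF arrays were both above the arrays without MLIF, with a log2 change of 0.50 (SE 0.25, interval -0.07 to 1.07, unadjusted p = 0.0762 and adjusted p = 1 by limma). With array weights, which gave the adjuvant+MLIF arrays a weight of 7.76 and the CIA arrays 0.138, this change passed at a limma adjusted p of 0.0378.

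Osm encodes oncostatin M, a product of neutrophils, macrophages and T cells that acts on fibroblasts and endothelium. Its log2 signal was 6.10 and 5.70 in CIA+MLIF, 5.42 and 5.88 in CIA, 5.86 and 6.02 in adjuvant+MLIF and 5.78 and 5.92 in adjuvant paws. All 4 groups overlapped, and the signal lay below the control-entry median on all 8 arrays. The change in CIA against adjuvant was -0.20 (interval -0.66 to 0.26, limma adjusted p = 0.492), 0.05 above the median of all probe sets, and its sign turned under both scalings, to 0.20 after quantile normalization and 0.02 after centring. CIA+MLIF against CIA gave 0.25 (interval -0.21 to 0.71), which was -0.14 after quantile normalization. Osm thus did not pass in the 2 comparisons where Osmr, its receptor chain, did.

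Lif encodes leukaemia inhibitory factor, a cytokine that maintains embryonic stem cells in culture and is made by stromal cells. The 8 log2 signals of Lif were 6.56 and 6.18 in CIA+MLIF, 6.45 and 6.58 in CIA, 6.20 and 6.34 in adjuvant+MLIF and 6.43 and 6.22 in adjuvant paws. The CIA arrays were above both adjuvant arrays by a small margin, and the arrays of all 4 groups spanned 0.40. The signal was above the control-entry median on 5 of 8 arrays. The change was 0.19 in CIA against adjuvant (interval -0.21 to 0.58, limma adjusted p = 0.459) and -0.14 in CIA+MLIF against CIA (interval -0.54 to 0.25, adjusted p = 0.582).

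Osmr encodes the oncostatin M receptor chain, which joins gp130 to form the receptor for OSM and, with another chain, that for IL-31. Its log2 signal was 9.01 and 9.10 in CIA+MLIF, 9.62 and 9.80 in CIA, 8.97 and 9.00 in adjuvant+MLIF and 8.83 and 8.95 in adjuvant paws. Both CIA arrays stood above the other 6, which lay between 8.83 and 9.10. Group means were 9.71 ± 0.13 in CIA and 8.89 ± 0.085 in adjuvant paws (SD, n = 2 each), a log2 change of 0.82 (SE 0.15, interval 0.49 to 1.15, limma adjusted p = 0.00484) and 1.07 relative to the median of all probe sets. This was the lowest adjusted p among the 10 genes in that comparison. The call ended without adjuvant replicate 1, at a log2 change of 0.76 (limma adjusted p = 0.0659), and with array weights (adjusted p = 0.0594).

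In CIA+MLIF paws Osmr averaged 9.05 ± 0.065, against 9.71 ± 0.13 in CIA paws (SD, n = 2 each). The log2 change was -0.66 (SE 0.15, interval -0.99 to -0.33, limma adjusted p = 0.0177) and -0.90 relative to the median of all probe sets. Osmr in CIA+MLIF paws was 0.07 above adjuvant+MLIF (interval -0.26 to 0.40), and in adjuvant mice it differed by 0.09 with MLIF (interval -0.24 to 0.42). The interaction for Osmr was -0.75 (SE 0.21, interval -1.22 to -0.28, limma adjusted p = 0.0653), so the MLIF difference in collagen mice was not shown to differ from that in adjuvant mice at the threshold. It passed after quantile normalization (-0.88, limma adjusted p = 0.002) and centring (-0.97, adjusted p = 0.00509). The interaction was -0.84 without CIA replicate 1 and -0.66 without CIA replicate 2. The CIA+MLIF against CIA call for Osmr ended without CIA+MLIF replicate 1 (adjusted p = 0.127), without CIA+MLIF replicate 2 (0.0707), without either adjuvant+MLIF array (0.0634 each), in a fit of only the groups compared (0.164) and with array weights (0.185), all by limma.

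Tnfrsf1a encodes TNFR1, the receptor with a death domain. The log2 signal of Tnfrsf1a was 9.99 and 9.98 in CIA+MLIF, 10.25 and 10.39 in CIA, 10.07 and 10.10 in adjuvant+MLIF and 9.71 and 9.79 in adjuvant paws. The 4 groups did not overlap, in the order CIA, adjuvant+MLIF, CIA+MLIF and adjuvant from high to low. In the 4 tested comparisons of 2 groups, 51.6% to 57.2% of all probe sets did not overlap. The share of probe sets with all 4 groups apart was not computed. Group means were 10.32 ± 0.094 in CIA and 9.75 ± 0.053 in adjuvant paws (SD, n = 2 each), a log2 change of 0.57 (SE 0.14, interval 0.25 to 0.88, limma adjusted p = 0.0232), or 0.81 relative to the median of all probe sets. The call ended without adjuvant replicate 1 (limma adjusted p = 0.171), without adjuvant replicate 2 (0.117), without either adjuvant+MLIF array (0.0838 each), in a fit of only the groups compared (0.173) and with array weights (0.178).

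CIA+MLIF against CIA gave a Tnfrsf1a change of -0.34 (interval -0.65 to -0.02, limma adjusted p = 0.133), with both treated arrays below both untreated ones. It passed after quantile normalization (-0.46, limma adjusted p = 0.0113) and after centring (-0.56, adjusted p = 0.00995). The change was -0.40 without CIA replicate 1 and -0.27 without CIA replicate 2. In adjuvant mice the MLIF arrays were above the arrays without MLIF, by 0.33 on the log2 scale (interval 0.02 to 0.65, unadjusted p = 0.041 and adjusted p = 1 by limma), and passed only with array weights (adjusted p = 0.0296) among the settings tried. The interaction for Tnfrsf1a, whose parts ran in opposite directions, was -0.67 (SE 0.20, limma adjusted p = 0.0823). It passed after both scalings, without the lowest tercile of signal and with a trended and robust variance. The interaction was -0.73 without CIA replicate 1 and -0.60 without CIA replicate 2.

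Tnfrsf1b encodes TNFR2. Its log2 signal was 8.47 and 8.53 in CIA+MLIF, 8.55 and 8.90 in CIA, 8.70 and 8.68 in adjuvant+MLIF and 8.59 and 8.52 in adjuvant paws. CIA replicate 2 was the highest array, while CIA replicate 1 lay between the adjuvant arrays. The change was 0.17 in CIA against adjuvant (interval -0.19 to 0.53, limma adjusted p = 0.465) and -0.22 in CIA+MLIF against CIA (interval -0.58 to 0.14, adjusted p = 0.344). It passed in both comparisons after quantile normalization and after centring. In CIA against adjuvant the change was 0.34 without CIA replicate 1 and -0.01 without CIA replicate 2.

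Il6ra encodes the IL-6-binding chain, which also exists in a soluble form that lets IL-6 act on cells without it. Il6ra had log2 signals of 9.30 and 9.45 in CIA+MLIF, 8.74 and 9.16 in CIA, 9.17 and 9.15 in adjuvant+MLIF and 9.03 and 9.26 in adjuvant paws. The CIA+MLIF arrays were above all 6 others, and CIA and adjuvant overlapped. The change in CIA+MLIF against CIA was 0.43 (interval 0.02 to 0.83, limma adjusted p = 0.134), or 0.19 relative to the median of all probe sets. That change was 0.22 without CIA replicate 1 and 0.64 without CIA replicate 2, where the median of all probe sets was 0.03 and 0.43. In CIA against adjuvant it was -0.20 (interval -0.60 to 0.21, limma adjusted p = 0.443), and 0.02 after centring, so its sign depended on the scaling. The latter change was -0.41 without CIA replicate 2 and 0.01 without CIA replicate 1, where the median of all probe sets was -0.44 and -0.04.

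Il6st encodes gp130, the signalling chain shared by the receptors of IL-6, OSM and LIF. Il6st gave log2 signals of 11.43 and 11.72 in CIA+MLIF, 11.55 and 11.56 in CIA, 11.74 and 11.75 in adjuvant+MLIF and 11.72 and 11.77 in adjuvant paws. CIA was below adjuvant on every array by a change of -0.18 (interval -0.53 to 0.16, limma adjusted p = 0.392), which was 0.03 after centring. CIA+MLIF against CIA gave 0.02 (interval -0.32 to 0.36) and -0.20 after centring.

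Lifr encodes the LIF receptor chain, which pairs with gp130 to bind LIF. Lifr had log2 signals of 9.73 and 9.91 in CIA+MLIF, 9.71 and 9.92 in CIA, 9.99 and 9.99 in adjuvant+MLIF and 9.85 and 10.03 in adjuvant paws. Its 8 arrays spanned 0.32, the narrowest range of the 10 genes. The change was -0.12 in CIA against adjuvant (interval -0.47 to 0.23, limma adjusted p = 0.584), turning to 0.05 after quantile normalization and 0.09 after centring, and 0.01 in CIA+MLIF against CIA (interval -0.34 to 0.36), turning to -0.15 and -0.22 under the same settings.

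**Figure D2:**
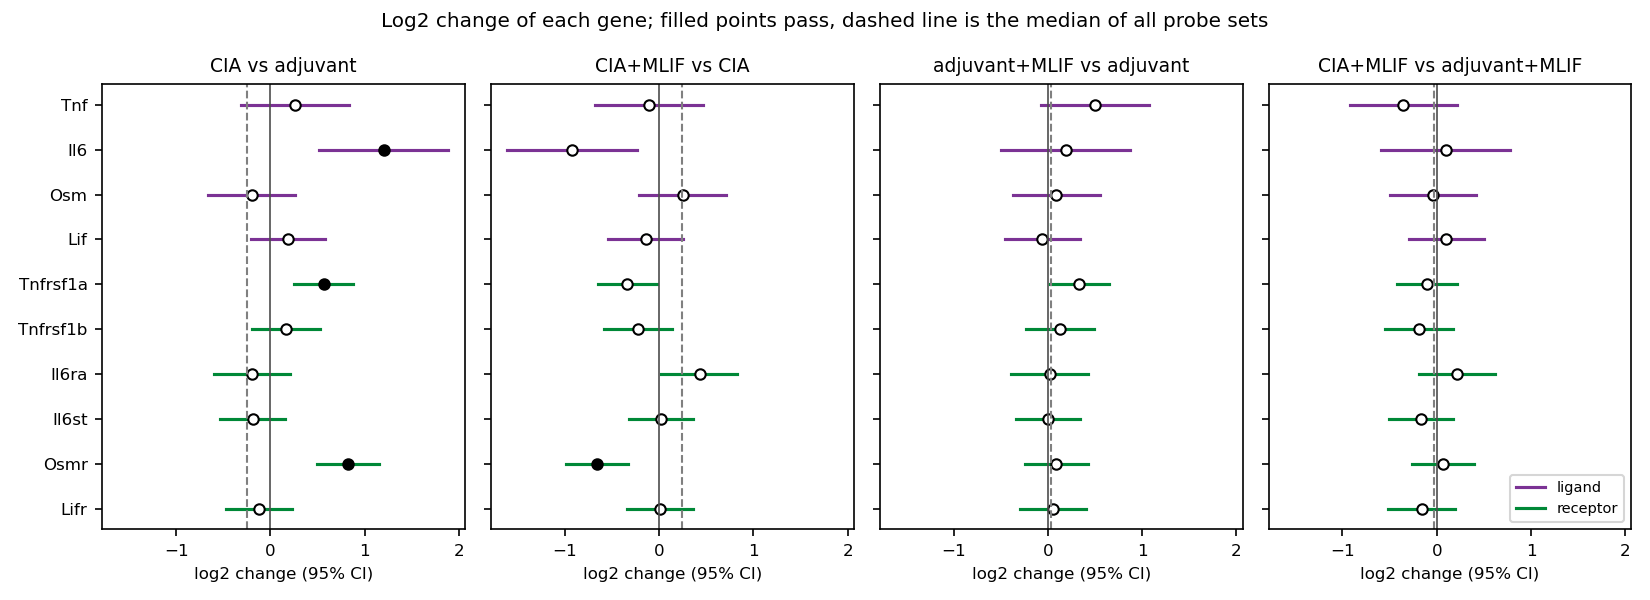
Log2 change of each gene (x axis) in 4 comparisons, with lines for 95% intervals, ligands in purple, receptors in green and filled points for adjusted p under 0.05. The dashed line is the median of all 28944 probe sets. In CIA against adjuvant all 10 genes lie to the right of that line, with Osm, Il6ra and Il6st close beside it. Il6, Osmr and Tnfrsf1a are filled there, and in CIA+MLIF against CIA only Osmr is filled.

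As deposited, the medians of ligands and receptors differed by less than the replicate spread in 4 comparisons. In CIA against adjuvant the median log2 change was 0.22 over the 4 ligands and 0.02 over the 6 receptors, against -0.25 over all probe sets, and each of the 4 ligands and 6 receptors lay above that overall median. Osm, Il6ra and Il6st were barely above it, at percentiles 55.2, 55.6 and 56.9 of all changes. After quantile normalization Il6ra was below it, at -0.06 against 0.01. The medians in CIA+MLIF against CIA were -0.13 and -0.11, against 0.24 over all probe sets, with 1 ligand (Osm) and 1 receptor (Il6ra) above it. In adjuvant+MLIF against adjuvant they were 0.14 and 0.07, against 0.03. In CIA+MLIF against adjuvant+MLIF they were 0.03 and -0.13, against -0.03. The ligand median minus the receptor median was 0.20, -0.02, 0.07 and 0.16 in these comparisons, each within the 0.24 that this difference varied between replicate arrays (SD). With an array left out the gap passed 0.24 in some cases, running from -0.31 to 0.29 in CIA+MLIF against CIA and from -0.12 to 0.38 in CIA+MLIF against adjuvant+MLIF. Within each class the range was wider than the gap between classes: in CIA against adjuvant the ligands ran from -0.20 to 1.21 and the receptors from -0.20 to 0.82.

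The other genes of both pathways are described by lists of known ligands, receptors, signal proteins and response genes. Their calls in the fit of the deposited values are read against the same shares of all probe sets. After quantile normalization 8127 of the 28944 probe sets passed in CIA against adjuvant and 7089 in CIA+MLIF against CIA. After centring these counts were 7968 and 6984. Of 6 other IL-6 family ligands and relatives measured, 0 passed in CIA against adjuvant and 0 in CIA+MLIF against CIA (median changes -0.20 and 0.16, against -0.25 and 0.24 over all probe sets). In CIA against adjuvant 2 of the 6 passed as higher after either scaling, and 1 as higher and 3 as lower without CIA replicate 2. The calls in CIA+MLIF against CIA also moved with that array, with 3 higher and 0 lower without it, against 0 and 1 without CIA replicate 1. Of 3 other receptors of the family, Cntfr, the binding chain for ciliary neurotrophic factor, was the 1 that passed. Its log2 signal was 8.26 and 8.31 in CIA+MLIF, 7.14 and 7.62 in CIA, 8.21 and 8.25 in adjuvant+MLIF and 8.66 and 8.26 in adjuvant paws. Both CIA arrays were below all others, opposite to Osmr. The change was -1.08 in CIA against adjuvant (SE 0.20, limma adjusted p = 0.00589) and 0.90 in CIA+MLIF against CIA (SE 0.20, adjusted p = 0.0174). Both Cntfr calls ended with array weights, the first also without adjuvant replicate 1 and the second without either CIA+MLIF array.

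Of 12 close relatives of TNF and its receptors, 1 passed in CIA against adjuvant and 0 in CIA+MLIF against CIA. That gene was Tnfrsf12a, the receptor of the cytokine TWEAK, at a log2 change of 0.68 (SE 0.19, limma adjusted p = 0.0405). The count was 0 with array weights, in a fit of only the groups compared, with the adjuvant+MLIF arrays averaged and without any 1 array outside the CIA group. It was 3 higher after quantile normalization, 4 higher after centring, and 2 higher with 6 lower without CIA replicate 2, which also gave 4 higher in CIA+MLIF against CIA. Of 24 genes of the TNF receptor signal chain, 0 passed in CIA against adjuvant (median -0.07, against -0.25 over all probe sets). This count rested on scaling and on the CIA arrays: 8 passed as higher and 1 as lower after quantile normalization, 7 and 1 after centring, 6 and 0 without CIA replicate 1, and 1 and 8 without CIA replicate 2. Of the 24, 2 passed in CIA+MLIF against CIA, both lower. Casp8, the initiator caspase of death receptors, changed by -0.73 (SE 0.14, limma adjusted p = 0.00928), and Cflar, its inhibitor, by -0.67 (SE 0.16, adjusted p = 0.0268). Both calls ended with array weights, in a fit of only the groups compared and without either CIA+MLIF array, and 1 of them ended without any 1 adjuvant or adjuvant+MLIF array. The list had 7 lower after either scaling, 6 lower without CIA replicate 1, and 5 higher with 3 lower without CIA replicate 2. Adam17, the protease that sheds TNF and both TNF receptors, changed by 0.44 in CIA against adjuvant (interval 0.09 to 0.79, limma adjusted p = 0.0785) and -0.45 in CIA+MLIF against CIA (interval -0.80 to -0.10, adjusted p = 0.0851), and it passed in neither.

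In the JAK-STAT3 chain, 2 of 16 genes passed as higher and 1 as lower in CIA against adjuvant. All 3 calls ended with array weights, in a fit of only the groups compared and without adjuvant replicate 1. There were 4 higher and 2 lower after quantile normalization, 6 higher and 1 lower after centring, and 2 higher and 6 lower without CIA replicate 2. Socs3, the feedback inhibitor that binds gp130 and is induced by STAT3, had log2 signals of 8.58 and 8.57 in CIA+MLIF, 8.67 and 8.94 in CIA, 7.99 and 7.93 in adjuvant+MLIF and 7.94 and 8.16 in adjuvant paws. The 4 collagen arrays were above the 4 adjuvant arrays, with or without MLIF. The Socs3 change was 0.76 in CIA against adjuvant (SE 0.16, limma adjusted p = 0.0115), -0.23 in CIA+MLIF against CIA (adjusted p = 0.327) and 0.62 in CIA+MLIF against adjuvant+MLIF (SE 0.16, unadjusted p = 0.00373, adjusted p = 0.324). Ptpn6, a phosphatase that restrains cytokine receptors, rose by 0.52 (SE 0.15, limma adjusted p = 0.0447), and Stat5b, a growth hormone and cytokine signal carrier, fell by 0.75 (change -0.75, SE 0.14, adjusted p = 0.00653). Stat5b was the 1 of 16 that passed in CIA+MLIF against CIA, at 0.73 (SE 0.14, limma adjusted p = 0.00942). In that comparison the list had 0 calls with array weights, in a fit of only the groups compared or without CIA+MLIF replicate 2, 1 higher and 3 lower after either scaling, and 7 higher and 1 lower without CIA replicate 2. Stat3 itself changed by 0.26 in CIA against adjuvant (limma adjusted p = 0.209), Jak1 by -0.08 and Jak2 by -0.17, and none of these passed.

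Of 23 measured genes known to respond to IL-6 and OSM, 12 passed as higher and 1 as lower in CIA against adjuvant, with a median log2 change of 0.76, against -0.25 over all probe sets. Timp1, an inhibitor of matrix metalloproteinases induced by OSM in fibroblasts, had log2 signals of 8.49 and 8.87 in CIA+MLIF, 10.77 and 11.05 in CIA, 9.24 and 9.20 in adjuvant+MLIF and 8.67 and 8.97 in adjuvant paws. Both CIA arrays were above all 6 others. Its change was 2.10 in CIA against adjuvant (SE 0.19, limma adjusted p = 9.71e-05) and -2.24 in CIA+MLIF against CIA (SE 0.19, adjusted p = 0.000141). Cxcl5, a neutrophil-attracting chemokine, changed by 2.44 and -2.42 in these comparisons, and was above the control-entry median only on the CIA arrays. S100a8 (2.39 and -2.16) and S100a9 (2.14 and -1.97), calcium-binding proteins of neutrophils and stressed epithelium, passed in both. In CIA+MLIF against CIA 0 of 23 passed as higher and 11 as lower, with a median of -0.23, against 0.24. With an array left out, 10 to 15 passed as higher in CIA against adjuvant and 6 to 11 as lower in CIA+MLIF against CIA, with 6 without CIA+MLIF replicate 1. Without CIA replicate 2, 3 passed as lower in the first comparison and 4 as higher in the second, and with array weights 5 passed as lower in the second. The 1 gene of this list that passed in CIA+MLIF against adjuvant+MLIF was Fos, a subunit of AP-1, at 1.13 (SE 0.16, limma adjusted p = 0.013). Fos had log2 signals of 8.27 and 8.28 in CIA+MLIF, 7.55 and 7.94 in CIA, 7.17 and 7.12 in adjuvant+MLIF and 8.73 and 8.78 in adjuvant paws. The adjuvant+MLIF arrays were the lowest, and CIA+MLIF lay below adjuvant. The call ended with the adjuvant+MLIF arrays averaged and without any 1 CIA+MLIF or adjuvant+MLIF array.

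Genes known to respond to TNF gave 6 higher and 1 lower of 25 measured in CIA against adjuvant, with a median log2 change of 0.27, against -0.25 over all probe sets. Tnfaip6, a hyaluronan-binding protein induced by TNF, had log2 signals of 7.69 and 7.98 in CIA+MLIF, 9.83 and 9.84 in CIA, 7.16 and 7.17 in adjuvant+MLIF and 6.98 and 6.97 in adjuvant paws. CIA was the highest group and CIA+MLIF the next, and no arrays overlapped between groups, a pattern whose share over all probe sets was not computed. Its change was 2.86 in CIA against adjuvant (SE 0.15, limma adjusted p = 5.01e-06) and -2.01 in CIA+MLIF against CIA (SE 0.15, adjusted p = 7.79e-05). Mmp9 (2.61 and -2.65) and Mmp3 (2.08 and -2.03), proteases that degrade matrix, passed in both. Sele, the endothelial adhesion molecule E-selectin, rose by 1.44 in CIA against adjuvant, and Il1b, the cytokine IL-1 beta, changed by -1.63 in CIA+MLIF against CIA (SE 0.29, limma adjusted p = 0.00612). Between CIA+MLIF and CIA 0 of 25 passed as higher and 7 as lower, with a median of -0.15, against 0.24. After either scaling 14 of the 25 passed as higher in CIA against adjuvant and 13 as lower in CIA+MLIF against CIA. Without CIA replicate 1 these counts were 12 and 11, and without CIA+MLIF replicate 1 the second was 4. Without CIA replicate 2, 9 passed as higher and 6 as lower in CIA against adjuvant, and 6 as higher and 9 as lower in CIA+MLIF against CIA. No gene of the 7 pathway lists passed in adjuvant+MLIF against adjuvant by limma's adjusted p. Some did under other settings: in the IL-6 and OSM response list 5 passed as higher and 2 as lower with array weights, 2 and 1 after quantile normalization, and 1 and 1 after centring or without a CIA array.

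**Figure D3:**
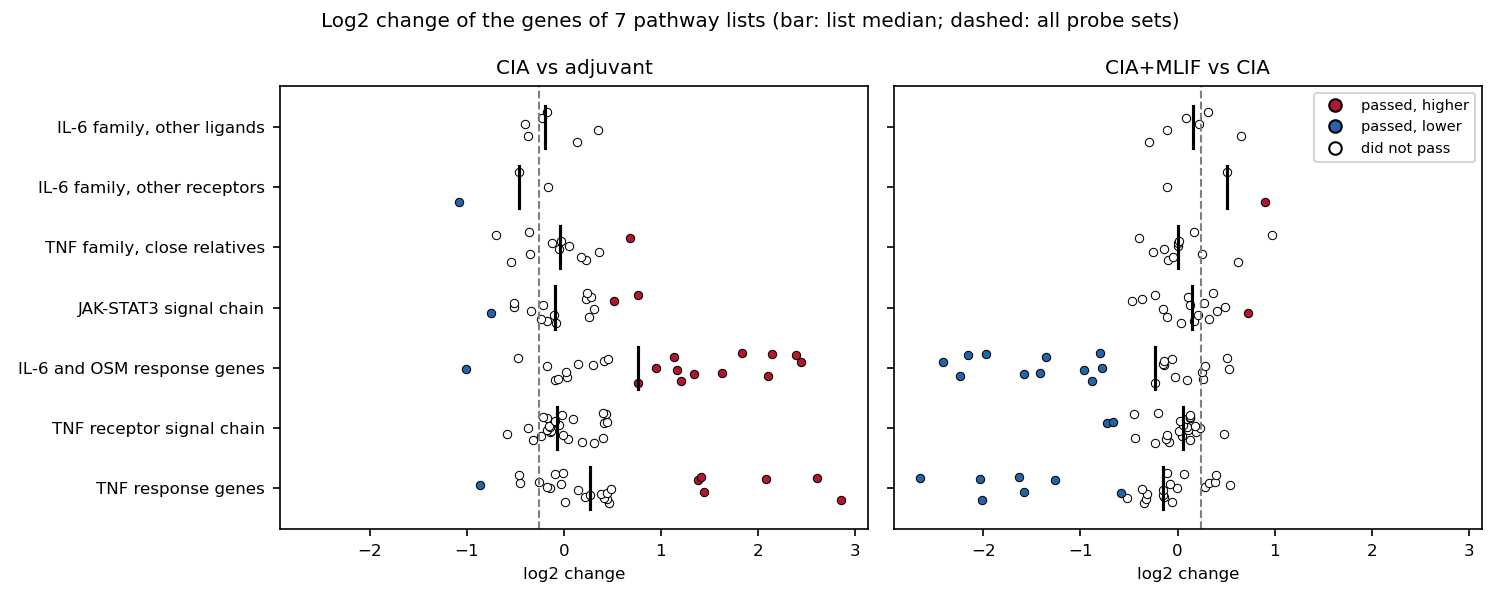
Log2 change (x axis) of each gene of the 7 pathway lists in CIA against adjuvant and in CIA+MLIF against CIA. Dots are genes, red where they passed as higher, blue where they passed as lower and white otherwise. Black bars are list medians and dashed lines the median of all probe sets. The IL-6 and OSM response list has its median at 0.76 in the first comparison and -0.23 in the second.

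Marker genes of several cell types differed between the same groups, while other lists had few calls. T cell markers gave 0 of 7 in CIA against adjuvant and 1 of 7, lower, in CIA+MLIF against CIA. B cell markers gave 0 of 5 in both. Mast cell markers gave 2 of 6, lower, in the first and 1 of 6, higher, in the second. Chondrocyte markers gave 1 higher and 1 lower of 8 in both. Given as a list mean of log2 signal minus the array's median, 12 of 12 neutrophil markers were measured and lay at 0.73 to 0.80 in CIA+MLIF, 2.75 to 2.93 in CIA, 1.22 in adjuvant+MLIF and 0.49 to 0.65 in adjuvant paws, and all 12 passed as higher in CIA against adjuvant and as lower in CIA+MLIF against CIA. None of the 12 lay below the control-entry median on every array, and 9 lay above it on every array. Of the 12, S100a8, S100a9, Lcn2 and Mmp9 are also in the response lists. Fibroblast markers (11 of 11 measured) lay at 4.01 to 4.20 in CIA+MLIF, 4.72 to 4.96 in CIA, 4.25 in adjuvant+MLIF and 4.13 to 4.21 in adjuvant paws. They differed in direction: in CIA against adjuvant 6 passed as higher and 1, Cd55 (-1.34), as lower. In CIA+MLIF against CIA 6 passed as lower and 1, Cd55 (1.04), as higher. Macrophage markers (13 of 14) lay at 2.25 to 2.45 in CIA+MLIF, 2.66 to 2.77 in CIA, 2.53 to 2.55 in adjuvant+MLIF and 2.36 to 2.55 in adjuvant paws. These levels are relative to each array's median, whereas the calls and changes of single genes use the values as deposited. As deposited, the macrophage markers had a median change of -0.03 in CIA against adjuvant, against -0.25 over all probe sets. Macrophage genes differed in direction: in CIA against adjuvant Mpeg1 (0.85) and Cd14 (0.79) passed as higher and Cd163 (-1.14) as lower, and in CIA+MLIF against CIA Mpeg1 (-1.26), Cd14 (-0.78) and Ccr2 (-0.82) passed as lower and Cd163 (1.38) as higher. Osteoclast markers (8 of 8) lay at 0.24 to 0.39 in CIA+MLIF, 1.94 to 2.15 in CIA, 0.54 to 0.58 in adjuvant+MLIF and 0.27 to 0.45 in adjuvant paws.

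Keratinocyte markers (12 of 12) lay at 2.77 to 2.90 in CIA+MLIF and 3.75 to 3.90 in CIA paws, against -0.98 to -0.94 in adjuvant+MLIF and -1.08 to -1.01 in adjuvant paws. Of the 12, 2 lay above the control-entry median on every array and 0 below it on every array. As higher in CIA against adjuvant 11 of the 12 passed, and as lower in CIA+MLIF against CIA 7. In CIA+MLIF against adjuvant+MLIF 11 also passed as higher, where 0.729% of all probe sets passed in either direction. Skeletal muscle markers (12 of 12) ran the other way, at 5.25 to 5.55 in CIA+MLIF, 4.13 to 4.28 in CIA, 5.52 to 5.53 in adjuvant+MLIF and 5.38 to 5.55 in adjuvant paws. Adipocyte markers (7 of 8) lay at 2.48 to 2.72 in CIA+MLIF, 1.71 to 1.74 in CIA, 2.54 to 2.55 in adjuvant+MLIF and 2.67 to 2.81 in adjuvant paws. Osteoblast markers (6 of 8) lay at 1.72 to 1.91 in CIA+MLIF, 2.76 to 2.91 in CIA, 2.06 to 2.07 in adjuvant+MLIF and 1.95 to 2.06 in adjuvant paws. Endothelial markers (8 of 8) lay at 1.59 to 1.71, 2.05 to 2.19, 1.72 to 1.73 and 1.76 to 1.80 in the same order. As deposited, their median change was 0.14 in CIA against adjuvant and -0.23 in CIA+MLIF against CIA, and 0 of the 8 passed in either comparison. The part of these differences in the changes of Il6, Osmr, Tnfrsf1a and the pathway lists was not tested.

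The genes whose log2 signal followed the 3 called members most closely over the 8 arrays are given as a description. Among 18707 genes, Osmr was followed most closely by Hif1a (Pearson r = 0.998), Myc (0.996) and Ctsb (0.995). Tnfrsf1a was followed by Tm9sf1 (0.990), Ppbp (0.981) and Col2a1 (0.980), and Il6 by Arhgef19 (0.992), Rnf145 (0.989) and Kif18b (0.985). The 8 points share 4 groups and a common array scaling, and for Osmr, Il6 and Tnfrsf1a the CIA arrays were the highest.

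**Figure D4:**
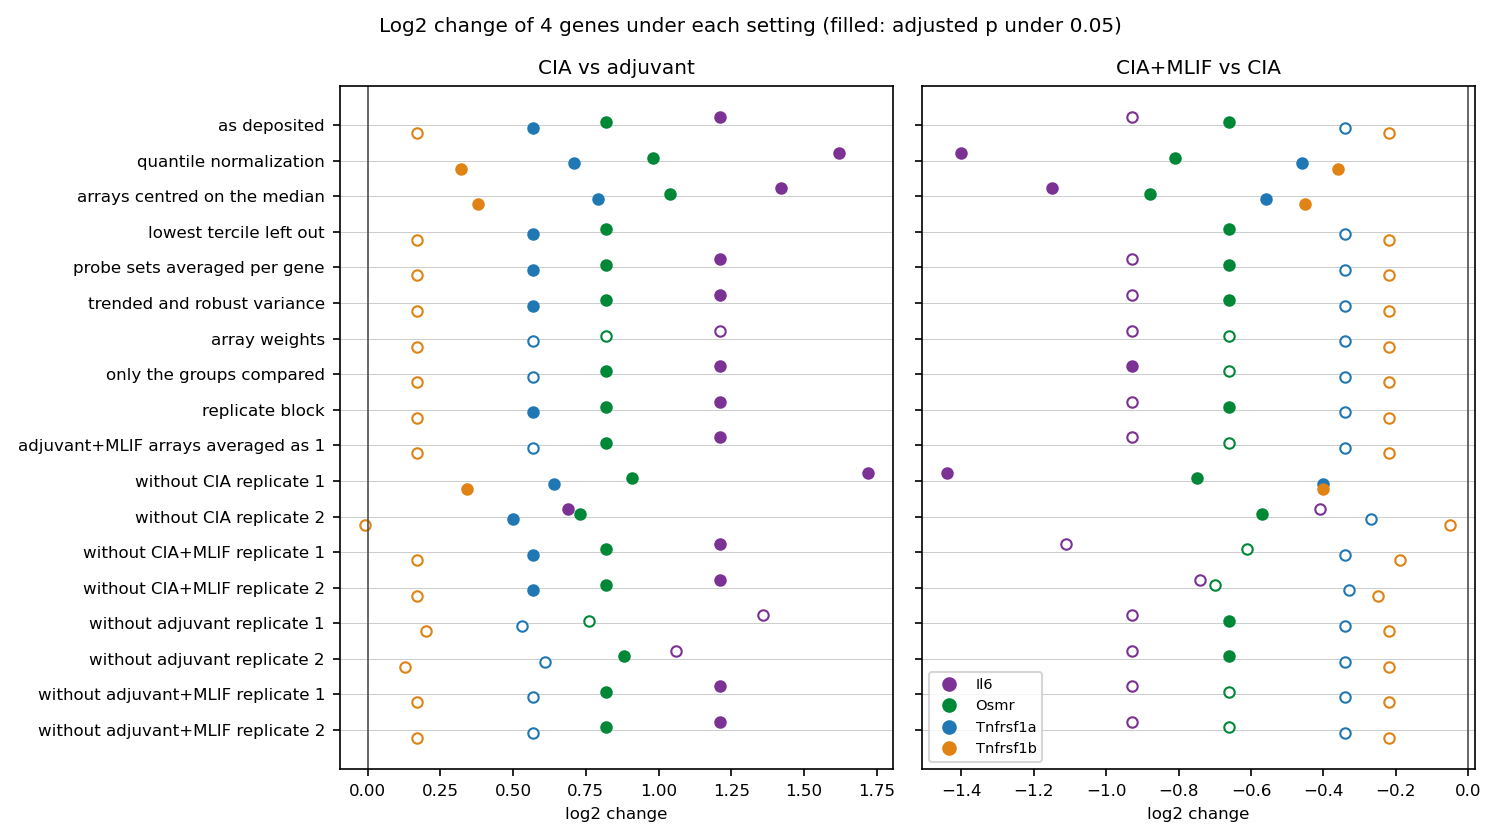
Log2 change (x axis) of Il6, Osmr, Tnfrsf1a and Tnfrsf1b under each processing setting and with each array left out (y axis). Filled points have an adjusted p under 0.05. Osmr in CIA against adjuvant is filled in all settings shown except array weights and without adjuvant replicate 1, and Il6 shifts between 0.69 and 1.72 with the CIA array left out.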

How the data were processed

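RNA of 8 paw samples (300 ng each, biotin-labelled) was hybridised to Affymetrix Mouse Gene 1.0 ST arrays, per the labels' protocols. The authors deposited 1 table of log2 signals, a unit read from the range of its values. The sources used here do not give the software, the background correction, how probes were summarised or how arrays were normalized. Of 35557 entries the first 6613 have no gene annotation and were taken, from position and missing names, as array controls. The other 28944 probe sets were tested with no filter: 21789 carry 1 symbol, 1621 several and 5534 none. Symbols come from the platform annotation, and no list gene was matched through a RefSeq synonym. A gene with several probe sets is represented by the one with the highest mean. Array tables carry no read depth.

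One limma fit (limma 3.58.1, R 4.3.3) of 4 group means over all 8 arrays gave the 5 comparisons, with moderated t statistics (residual df 4, prior df 4.96). The p-values are two-sided, with Benjamini-Hochberg adjustment across every tested probe set and a threshold of 0.05. The fit was tested on simulated data. An exact permutation test of 2 arrays against 2 cannot go below p = 0.333 and was not used. The 10 genes, 7 pathway lists and 13 marker lists were chosen with earlier results of these data known. All 10 genes are described, and of each list at most the 4 passing genes with the largest change and no overlap between arrays, plus the partners Socs3, Stat3, Jak1, Jak2 and Adam17, and for each gene that passed the 3 genes of highest correlation. List genes that no single-symbol probe set represents were not analysed here. Promoter windows come from RefSeq, build GRCm38.p6. Alternatives were quantile normalization, centring each array, leaving out the lowest tercile, the mean of a gene's probe sets, array weights, a variance prior with trend and robustness, a replicate block, separate fits for each pair of groups, the adjuvant+MLIF arrays averaged, other thresholds and leaving out each array. List counts under these settings were added after the data were seen. Python 3.11.15 with Matplotlib 3.10.9 drew the figures.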

Additional observations from a re-analysis of the deposited data

How the results depend on the processing

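With 2 arrays per group the median SE of a log2 change was 0.18, and the signals of Il6 and Osm lay below the control-entry median on all 8 arrays, where a fold is least certain. The CIA arrays had median signals of 6.66 and 7.07, so scaling moves each comparison that uses them, and which scaling is right cannot be told from the deposited values.

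Of the 10 genes, 3 were called in CIA against adjuvant. The count was 4 after quantile normalization and after centring, 0 with array weights, 1 at an adjusted p under 0.01, and 0 to 4 with an array left out. In CIA+MLIF against CIA the count of 1 became 4 after quantile normalization, 4 after centring, 0 with array weights, 0 with the adjuvant+MLIF arrays averaged as 1, 0 at a threshold of 0.01, 2 at 0.10, and 0 to 4 with an array left out. In a fit of only the groups compared the 1 gene was Il6 in place of Osmr. In adjuvant+MLIF against adjuvant the count of 0 became 2 with array weights (Tnf and Tnfrsf1a). CIA+MLIF against adjuvant+MLIF gave 0 in every setting run. The interaction count of 0 became 4 after quantile normalization, 4 after centring, 2 without the lowest tercile, 2 with a trended and robust variance, 2 at a threshold of 0.10, and 0 to 4 with an array left out. The cause of these differences was not tested, except that the lowest tercile held Il6 and Osm and the averaged arrays leave fewer samples. Counts over all 28944 probe sets moved too. The interaction passed for 5037 after quantile normalization, 4725 after centring and 2527 with a trended and robust variance, in place of 2095. Without the lowest tercile it passed for 2359 of 19296. Centring gave 7968 in CIA against adjuvant and 6984 in CIA+MLIF against CIA, in place of 5353 and 4257.

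In the settings that gave a value, Il6, Osmr and Tnfrsf1a kept their sign in CIA against adjuvant, and Osmr in CIA+MLIF against CIA. Log2 changes that changed sign by scaling were, in CIA against adjuvant, Osm at 0.20 (quantile) and 0.02 (centred), Il6ra at 0.02 and Il6st at 0.03 (centred), and Lifr at 0.05 (quantile) and 0.09 (centred). In CIA+MLIF against CIA they were Osm at -0.14 (quantile), Il6st at -0.20 (centred), and Lifr at -0.15 (quantile) and -0.22 (centred). In adjuvant+MLIF against adjuvant they were Il6ra at -0.02 and Il6st at -0.08 (quantile). For the interaction they were Osm at -0.25 (quantile) and -0.07 (centred), and Il6st at -0.21 (centred).

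With an array left out the ranges that crossed 0 were, in CIA against adjuvant, -0.07 to 0.59 for Tnf, -0.43 to 0.03 for Osm, -0.01 to 0.34 for Tnfrsf1b and -0.41 to 0.01 for Il6ra. In CIA+MLIF against CIA they were -0.44 to 0.22 for Tnf, -0.33 to 0.05 for Lif, -0.12 to 0.16 for Il6st and -0.10 to 0.11 for Lifr. In adjuvant+MLIF against adjuvant they were -0.16 to 0.05 for Lif, -0.09 to 0.13 for Il6ra, -0.02 to 0.03 for Il6st and -0.04 to 0.14 for Lifr. In CIA+MLIF against adjuvant+MLIF they were -0.09 to 0.28 for Il6, -0.24 to 0.16 for Osm and -0.09 to 0.29 for Lif. For the interaction they were -0.07 to 0.39 for Osm, -0.27 to 0.11 for Lif, -0.13 to 0.16 for Il6st and -0.15 to 0.06 for Lifr. The ligand median minus the receptor median ran from -0.31 to 0.29 in CIA+MLIF against CIA, from -0.12 to 0.38 in CIA+MLIF against adjuvant+MLIF and from -0.44 to 0.14 for the interaction.

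Replicate numbers did not pair the arrays across all groups. The deviations of same-numbered arrays correlated at 0.39 between CIA+MLIF and adjuvant, and at -0.11 to 0 between the other groups. With the replicate number as a block, 3 of the 10 genes were called in CIA against adjuvant and 1 in CIA+MLIF against CIA, with adjusted p = 0.0343 for Il6, 0.00629 for Osmr and 0.0296 for Tnfrsf1a in the first and 0.0207 for Osmr in the second (limma). Over all probe sets, 5212 were called with the block in CIA against adjuvant, and 5353 without it. Other counts over all probe sets moved by more than 1.5 times: CIA against adjuvant gave 17706 without CIA replicate 2, 8127 after quantile normalization and 1987 with array weights, in place of 5353. CIA+MLIF against CIA gave 17353, 7089 and 1261 under the same settings, in place of 4257, and adjuvant+MLIF against adjuvant gave 529, 365 and 1440, in place of 0.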
